A study of Mus musculus with 6 samples.

Results

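Glutathione is the main thiol antioxidant of the cell and the electron donor of GPX4, the peroxidase that holds back ferroptosis, and its synthesis depends on cystine taken up from outside. The genes described here are the 10 that carry cystine into the cell, build and recycle glutathione, break it down, or act beside it: Slc7a11, Slc3a2, Gclc, Gclm, Gss, Gsr, Ggt1, Ggt7, Chac2 and Aifm2. They were chosen by gene name, and all 10 had a row among the 36842 genes of the deposited expression table. The table holds 6 mouse RNA-seq libraries in 2 groups of 3, and every library is labelled as wild-type GC-2spd(ts), a line made from mouse spermatocytes, with testis as the tissue. The CP group was given cyclophosphamide at 2 mM for 24 h, an alkylating anticancer drug that harms germ cells. The Sal_CP group was given 2 mM cyclophosphamide with salidroside at 100 µM, a phenylethanoid glycoside of Rhodiola, for 24 h. Both groups carry cyclophosphamide, and cells without it are not analysed here. Whether the 3 libraries of each group stem from different cultures is not stated, so p-values here measure only the spread between libraries, which may be technical.

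Cystine enters through an antiporter made of the light chain SLC7A11 and the heavy chain SLC3A2, and is reduced to cysteine inside the cell. Glutamate-cysteine ligase, built from the catalytic subunit GCLC and the modifier GCLM, carries out the limiting step of glutathione synthesis, and glutathione synthetase completes it. In the testis and epididymis glutathione is known for protecting germ cells and sperm from peroxidation, and γ-glutamyltransferase on epithelial surfaces starts the breakdown of glutathione outside the cell.

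The values are FPKM, the number of fragments per kilobase of transcript scaled to the total of the library, so levels can be set beside each other between genes. The steps between low values of genes with a single annotated transcript placed the depth at about 16500000 to 22000000 fragments per library, with Sal_CP replicate 1 the deepest. Between 33.9 and 35.8% of the low values lay within 0.05 of a whole fragment at that depth, where 10% would if values fell evenly. The depth was set to make the most frequent of these same values 1 fragment. Part of that excess was therefore built in, and it does not test the depth. The marker levels did not look like those of a spermatocyte line, and whether the libraries hold the labelled cells was not tested. The 12 spermatid markers summed to between 34019 and 80866 FPKM, the 10 markers of spermatocytes and meiosis to between 4.69 and 11.1 FPKM, and Crisp1, an epididymal secretory protein, reached 3521 FPKM. Sal_CP replicate 1 stood apart from the other Sal_CP libraries, with a median of 4.04 FPKM over the 12241 genes tested, against 2.80 and 2.75 in replicates 2 and 3 and 3.34 to 3.57 in CP. Its macrophage marker Cd68 was at 133 FPKM, against 13.6 to 36.1 in the other 5 libraries. Changes of the 10 genes are therefore given with and without that library, and those of the pathway and marker lists with all libraries unless stated. In bulk RNA, fewer cells of a type and less RNA per cell cannot be told apart.

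None of the 10 genes passed the test of Sal_CP against CP, which asks what salidroside adds to cyclophosphamide. Of the 10, 8 had a mean of at least 1 FPKM and entered the test. Among these 8, Ggt1 reached that mean only through CP, as its Sal_CP libraries were all below 1 FPKM. limma called 0 of these 8 at an adjusted p below 0.05, where it called 0.0735% of all genes tested, and 1 of the 8, Ggt1, had an unadjusted p below 0.05, where 10.7% of all genes did and 6.77% did with a lower level in Sal_CP. The log2 changes were below 0 for 7 of the 8, beside 60.5% of all genes. Their median was -0.30, and that of all genes tested was -0.12. The authors' deposited table gives q-values below 0.05 to 0 of the 10, where 0.605% of its genes have one, and a p-value below 0.05 to 1, Ggt1 (10.7% of its genes).

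Levels differed widely within the set. Slc3a2 had the highest mean over the 6 libraries, 12.02 ± 3.89 FPKM (SD, n = 6), followed by Gsr at 8.06 ± 2.97, Gclc at 6.82 ± 2.19 and Gclm at 4.36 ± 1.14. Below them came Aifm2 at 1.40 ± 0.660, Gss at 1.29 ± 0.420, Chac2 at 1.19 ± 0.544, Ggt1 at 1.11 ± 0.673, Ggt7 at 0.806 ± 0.289 and Slc7a11 at 0.655 ± 0.194 FPKM. Gclm and Aifm2 were the only neighbours in this order whose ranges did not overlap, with a ratio of 3.12 between their mean FPKM. Slc3a2 lay above Gsr, and Gclc above Gclm, in 6 of 6 libraries, while Gsr and Gclc differed by less than the SD. Among the 6 lowest genes each was above the next in 3 or 4 of 6 libraries, and the differences of their means were smaller than the SD.

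**Figure D1:**
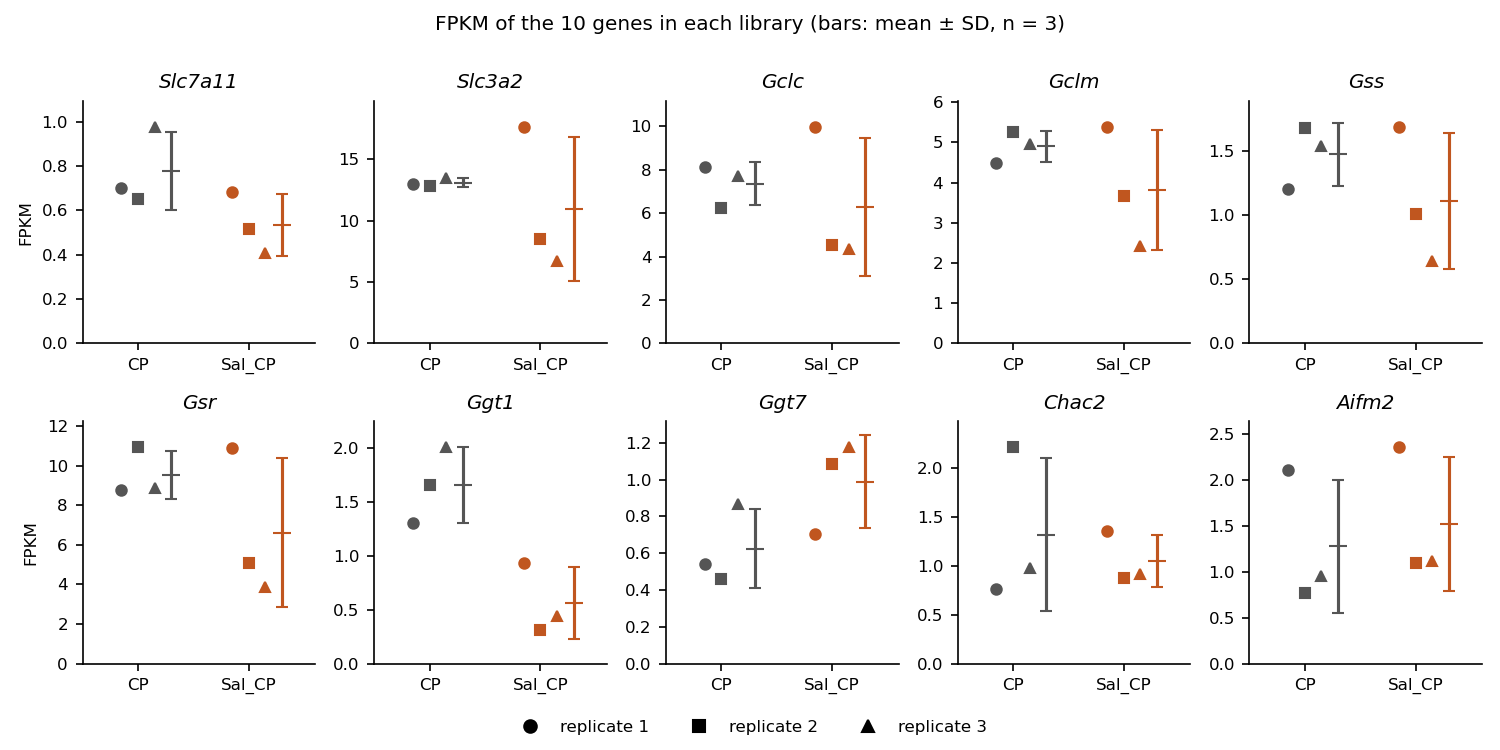
FPKM of each of the 10 genes (vertical axes, starting at 0) in the 3 CP and 3 Sal_CP libraries, with bars for the mean ± SD of each group (n = 3). Sal_CP replicate 1 (circles) is the highest Sal_CP library for 9 of the 10 genes, as it is for 64.4% of all genes tested. It is the lowest for Ggt7, and Ggt1 is the gene whose groups do not overlap.

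The light chain of the cystine antiporter was scarce and its heavy chain abundant. Slc7a11, the cystine-glutamate exchanger itself, was at 0.682, 0.514 and 0.405 FPKM in Sal_CP, against 0.702, 0.650 and 0.976 in CP. The groups overlapped, through Sal_CP replicate 1, while replicates 2 and 3 lay below every CP library. Slc7a11 stayed below the 1 FPKM filter. With the filter at 0.5 FPKM its log2 change was -0.21 (SE 0.19, 95% interval -0.63 to 0.21, adjusted p 0.607 in limma), and without Sal_CP replicate 1 it was -0.28 (adjusted p 0.260). At the recovered depth these levels correspond to 62 to 165 fragments over its coding transcript of 9223 bases.

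Slc3a2, the CD98 heavy chain that carries Slc7a11 and several other amino acid transporters to the membrane, was at 17.6, 8.46 and 6.74 FPKM in Sal_CP, against 13.0, 12.8 and 13.5 in CP. Sal_CP replicate 1 was above every CP library and the other Sal_CP libraries were below every CP library, so the spread in Sal_CP (SD 5.85) was wider than in CP (SD 0.359). The log2 change was -0.35 (SE 0.34, 95% interval -1.09 to 0.40, adjusted p 0.610 in limma), and -0.72 (SE 0.19, adjusted p 0.0713) without Sal_CP replicate 1. Slc3a2 exceeded Slc7a11 by 13.8 to 25.8 times within a library. The log2 of this ratio was 4.26 ± 0.371 in Sal_CP against 4.10 ± 0.273 in CP (SD, n = 3 each), a difference of 0.16 (SE 0.27, two-sided exact permutation p = 0.6, where 3 against 3 allows none below 0.1).

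The promoter of Slc7a11 is shown because it bears on how the scarce subunit is known to be induced: amino acid response elements, TGATGCAA, are bound by ATF4 when cystine or other amino acids run short. The 250 bases before the RefSeq start in GRCm38.p6, chr3:50443614-50443863 on the minus strand, are printed 5′ to 3′ with TGATGCAA on either strand in capitals.
Slc7a11: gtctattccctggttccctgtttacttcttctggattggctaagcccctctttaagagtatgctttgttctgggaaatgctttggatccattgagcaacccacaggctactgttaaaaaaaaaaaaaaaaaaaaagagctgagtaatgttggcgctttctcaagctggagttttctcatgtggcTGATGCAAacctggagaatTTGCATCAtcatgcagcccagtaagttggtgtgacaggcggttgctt
The element occurred on both strands, from 66 to 59 and from 47 to 40 bases before the start, and the matches do not overlap. Of 32851 promoter windows of this length, 0.791% held TGATGCAA on either strand and 2 windows held it more than once. A match is a description of these letters and says nothing of binding in these cells. Promoters were available for 8 of the 10 genes, and Slc7a11 was the only one of the 8 with this element.

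The enzymes that build glutathione were all highest in Sal_CP replicate 1 and lowest in Sal_CP replicates 2 and 3. Gclc, the catalytic subunit of glutamate-cysteine ligase, was at 9.97, 4.55 and 4.35 FPKM in Sal_CP, against 8.11, 6.25 and 7.71 in CP. Its log2 change was -0.27 (SE 0.32, 95% interval -0.97 to 0.42, adjusted p 0.655 in limma). Gclm, the modifier subunit that raises the affinity of the ligase for glutamate, was at 5.38, 3.66 and 2.42 FPKM in Sal_CP, against 4.49, 5.25 and 4.97 in CP, a log2 change of -0.34 (SE 0.28, 95% interval -0.94 to 0.27, adjusted p 0.567). For both subunits the groups overlapped through Sal_CP replicate 1 alone, the other Sal_CP libraries lying below every CP library. Without Sal_CP replicate 1 the changes were -0.61 (SE 0.18, adjusted p 0.0815) for Gclc and -0.56 (SE 0.19, adjusted p 0.09999) for Gclm.

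The proportion of catalytic to modifier subunit overlapped between the groups. Gclc exceeded Gclm in every library, by 1.85, 1.24 and 1.80 times in Sal_CP and 1.81, 1.19 and 1.55 times in CP. The log2 ratio was 0.68 ± 0.321 in Sal_CP against 0.58 ± 0.305 in CP (SD, n = 3 each), a difference of 0.10 (SE 0.26, two-sided exact permutation p = 0.6). Without Sal_CP replicate 1 the difference was 0.00061. The promoter of Gclm is shown because the gene is a known target of NRF2, which binds antioxidant response elements with the core TGACNNNGC. The 250 bases before its RefSeq start in GRCm38.p6, chr3:122245307-122245556 on the plus strand, carry 1 match, on the opposite strand, in capitals.
Gclm: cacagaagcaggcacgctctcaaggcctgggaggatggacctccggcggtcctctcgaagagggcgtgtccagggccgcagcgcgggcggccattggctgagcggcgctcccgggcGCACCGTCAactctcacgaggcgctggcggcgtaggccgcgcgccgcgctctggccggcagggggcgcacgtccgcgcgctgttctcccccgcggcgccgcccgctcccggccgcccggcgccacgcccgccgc
It spans 134 to 126 bases before the start. The core occurred in 10.2% of all windows, on either strand, and in 2 of the 8 genes with a promoter, Gclm and Ggt1. The 8 genes have 11 windows, 4 of them of Ggt1, so the count of genes and the share of windows are in different units. Gclc and Gsr had no entry.

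Gss, glutathione synthetase, was at 1.69, 1.00 and 0.642 FPKM in Sal_CP, against 1.20, 1.68 and 1.54 in CP. Sal_CP replicate 1 was just above the highest CP library and replicates 2 and 3 lay below the CP range. The log2 change was -0.25 (SE 0.25, 95% interval -0.79 to 0.28, adjusted p 0.608 in limma), and -0.44 (adjusted p 0.136) without Sal_CP replicate 1. Gclc exceeded Gss by 3.72 to 6.78 times within a library, and the log2 of this ratio differed by 0.18 between groups (SE 0.30, two-sided exact permutation p = 0.6).

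Gsr, the reductase that returns glutathione disulfide to glutathione with NADPH, was at 10.9, 5.05 and 3.86 FPKM in Sal_CP, against 8.78, 10.9 and 8.85 in CP. Replicates 2 and 3 of Sal_CP were lower than every CP library, and replicate 1 was level with the highest one. The log2 change of -0.57 (SE 0.34, 95% interval -1.31 to 0.17, adjusted p 0.502 in limma) was -0.95 (SE 0.20, adjusted p 0.0661) without Sal_CP replicate 1. A lower change than that of Gsr was seen in 9.26% of all genes tested.

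Of the genes that break glutathione down, Ggt1 was the 1 gene of the set whose groups did not overlap. Ggt1, a γ-glutamyltransferase of the cell surface that is abundant in rodent kidney and epididymis, was at 0.936, 0.307 and 0.438 FPKM in Sal_CP, against 1.30, 1.66 and 2.00 in CP. Every Sal_CP library was lower than every CP library, and groups without overlap in either direction were seen for 17.3% of all genes tested. The means were 0.560 ± 0.332 and 1.65 ± 0.350 FPKM (SD, n = 3 each), a ratio of 2.95 in favour of CP. The log2 change was -0.78 (SE 0.24, 95% interval -1.30 to -0.26), with an unadjusted p of 0.00699 and an adjusted p of 0.366 in limma, so Ggt1 did not pass. Ggt1 reached the filter of 1 FPKM only through CP, the group where it was higher, so the unadjusted p is no independent support for a lower level. It fell below the filter without CP replicate 2 or without CP replicate 3. With the filter at 0.5 FPKM its adjusted p was 0.363 in limma. Without Sal_CP replicate 1 the change was -0.95 (SE 0.19, adjusted p 0.0661 in limma). In the authors' deposited table Ggt1 had a p-value of 0.000939 and a q-value of 0.0991. These levels are thin: over its longest coding transcript of 2167 bases they correspond to between 11 and 80 fragments, and to between 3 and 23 over the shortest of 630 bases.

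Most markers of epithelium, though not the most abundant junction marker, were lower in Sal_CP, as Ggt1 was. The mean log2(FPKM + 1) of the 12 epithelial junction and keratin markers was 4.18, 3.76 and 3.38 in Sal_CP, against 4.70, 4.47 and 4.93 in CP, without overlap. Their summed level overlapped, at 554 to 706 FPKM in Sal_CP, against 630 to 837 in CP. Of these 12, 11 had a change below 0, beside 60.5% of all genes tested. In limma 0 passed, and 10 had an unadjusted p below 0.05, beside 10.7% of all genes. Cldn3, the most abundant of the 12, went the other way. It averaged 469 FPKM in Sal_CP, against 345 in CP (log2 change 0.49, adjusted p 0.540 in limma). Of the 15 epididymal markers 14 were in the table, summing to 1502 to 2216 FPKM in Sal_CP, against 3175 to 3608 in CP, nearly all of it Crisp1. Crisp1 was at 1423 to 2123 FPKM in Sal_CP against 3074 to 3521 in CP (adjusted p 0.420 in limma). Adam7, the next most abundant, had higher means in Sal_CP, at 80.9, 67.2 and 72.7 FPKM, against 53.7, 73.5 and 55.8 in CP (log2 change 0.28, adjusted p 0.642). Of the 6 epididymal markers tested 1, Defb42, passed, with a lower level in Sal_CP, beside 0.0735% of all genes tested. limma called 0 genes of any kind without Sal_CP replicate 1, without a filter, or after median of ratios rescaling. Lcn9 and Defb41 were listed at 0 in every library, and Crisp4 and Rnase10 were below 1 FPKM. The part of these markers in the level of Ggt1 was not tested.

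RefSeq lists 4 starts of Ggt1, and the 250 bases before 2 of them hold the core TGACNNNGC, so both are shown with the match in capitals. They lie on the plus strand of GRCm38.p6 at chr10:75568412-75568661 and chr10:75571310-75571559.
Ggt1 at 75568412: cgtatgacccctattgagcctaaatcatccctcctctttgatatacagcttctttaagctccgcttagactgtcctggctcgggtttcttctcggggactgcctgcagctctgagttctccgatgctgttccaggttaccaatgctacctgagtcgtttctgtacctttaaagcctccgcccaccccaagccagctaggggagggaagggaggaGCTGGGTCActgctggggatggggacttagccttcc
Ggt1 at 75571310: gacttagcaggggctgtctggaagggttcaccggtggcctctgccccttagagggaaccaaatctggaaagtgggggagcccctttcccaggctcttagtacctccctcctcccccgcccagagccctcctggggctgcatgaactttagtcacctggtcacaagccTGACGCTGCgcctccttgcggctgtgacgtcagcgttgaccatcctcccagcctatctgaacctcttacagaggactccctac
The matches span 36 to 28 bases and 83 to 75 bases before their starts. Which start was used in these libraries cannot be read from a level per gene.

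Ggt7, a member of the same family with the lowest level after Slc7a11 over all 6 libraries but above Ggt1 in the mean of Sal_CP, had higher means in Sal_CP. It was at 0.702, 1.09 and 1.18 FPKM in Sal_CP, against 0.542, 0.462 and 0.870 in CP. Sal_CP replicates 2 and 3 were above every CP library and replicate 1 was inside the CP range. With the filter at 0.5 FPKM the log2 change was 0.29 (SE 0.21, 95% interval -0.16 to 0.74, adjusted p 0.553 in limma), and 0.40 (adjusted p 0.165) without Sal_CP replicate 1. Over its coding transcripts of 956 to 2614 bases the levels correspond to 8 to 51 fragments.

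The balance of both family members was also compared within each library. Ggt1 exceeded Ggt7 in all 3 CP libraries, by 2.41, 3.59 and 2.30 times, and in Sal_CP replicate 1 by 1.33 times, while in Sal_CP replicates 2 and 3 the ratio was 0.282 and 0.373. The log2 ratio was -0.94 ± 1.19 in Sal_CP against 1.44 ± 0.352 in CP (SD, n = 3 each). The difference of -2.38 (SE 0.72) was without overlap, and its two-sided exact permutation p of 0.1 is the smallest that 3 against 3 allows, or 0.4 when adjusted over the 4 ratios examined. A ratio within a library does not depend on the scaling between libraries.

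**Figure D2:**
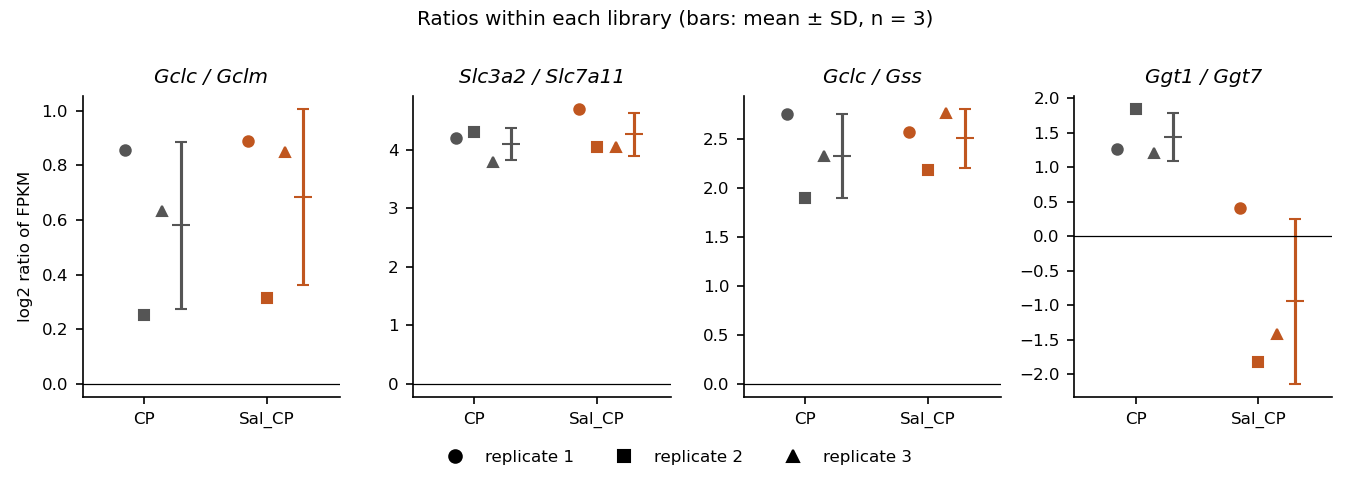
Log2 ratio of FPKM for 4 gene pairs in each library, with bars for the mean ± SD of each group (n = 3) and a line at 0 for equal levels. Groups overlap for the first 3 pairs, and for Ggt1 over Ggt7 the Sal_CP libraries lie below the CP libraries, at means of -0.94 and 1.44.

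Chac2, a cytosolic γ-glutamylcyclotransferase that degrades glutathione, and Aifm2, the ubiquinone reductase also called FSP1 that limits lipid peroxidation beside GPX4, were the members whose replicates within CP varied most. Chac2 was at 1.36, 0.872 and 0.921 FPKM in Sal_CP, against 0.768, 2.22 and 0.980 in CP, where 1 library was 2.88 times the lowest. Its log2 change was -0.14 (SE 0.27, 95% interval -0.72 to 0.45, adjusted p 0.789 in limma). Aifm2 was at 2.35, 1.09 and 1.11 FPKM in Sal_CP, against 2.10, 0.772 and 0.956 in CP. The library numbered 1 was the highest in each group, and the log2 change was 0.15 (SE 0.29, 95% interval -0.47 to 0.78, adjusted p 0.779). Without Sal_CP replicate 1 the sign of Aifm2 turned, to -0.07 (adjusted p 0.839), and that of Chac2 stayed below 0 at -0.24 (adjusted p 0.506).

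**Figure D3:**
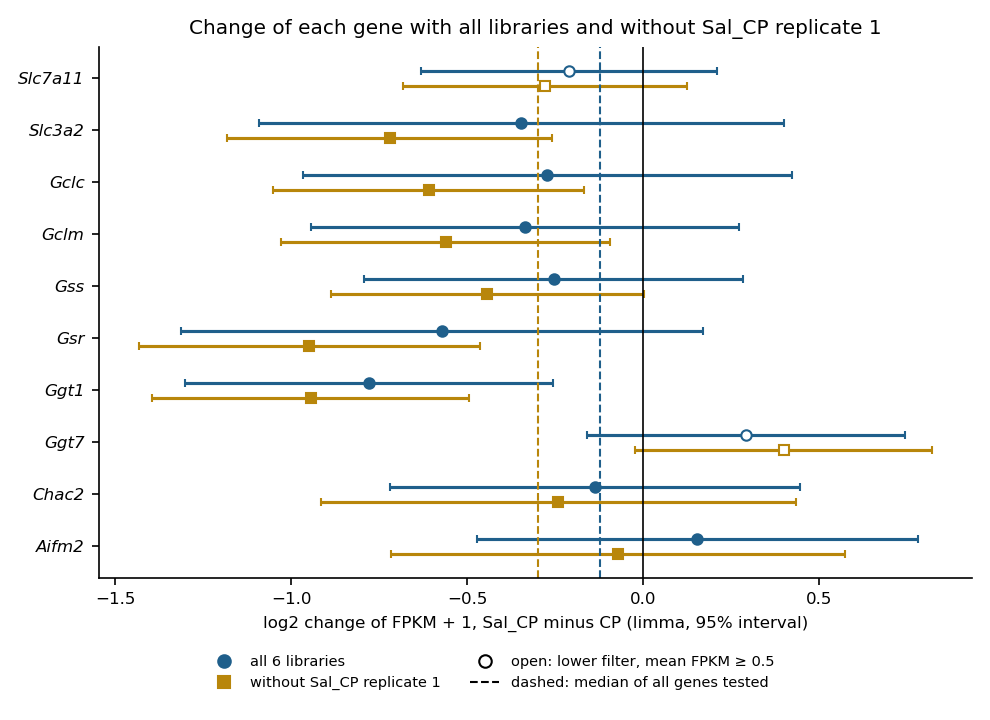
Log2 change of FPKM + 1, Sal_CP minus CP, with its 95% interval from limma, for all 6 libraries (circles) and without Sal_CP replicate 1 (squares). Open symbols are the 2 genes tested only with the filter at 0.5 FPKM, and dashed lines are the medians of all genes tested, -0.12 and -0.30. With all libraries the interval of Ggt1 (-1.30 to -0.26) is the 1 that leaves out 0.

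Taken by library, the set was high in Sal_CP replicate 1 and low in the other Sal_CP libraries. Sal_CP replicates 2 and 3 were both below every CP library for 7 of the 10 genes (6 of the 8 tested), Slc7a11, Slc3a2, Gclc, Gclm, Gss, Gsr and Ggt1. The same held for 46.7% of all genes tested. Sal_CP replicate 1 was above every CP library for 5, Slc3a2, Gclc, Gclm, Gss and Aifm2, as it was for 42.3% of all genes. The mean log2(FPKM + 1) of the 10 genes was 2.08, 1.55 and 1.43 in Sal_CP, against 1.89, 1.95 and 1.96 in CP. Without Sal_CP replicate 1, limma called 0 of the 8 and 0 of 12067 genes (0.0%), while 5 of the 8 had an unadjusted p below 0.05 (Slc3a2, Gclc, Gclm, Gsr and Ggt1, all lower in Sal_CP), where 37.1% of all genes did and 31.5% did with a lower level. The median of the 8 was then -0.59 and that of all genes -0.30. Leaving out Sal_CP replicate 3 instead moved the values the other way, to a median of -0.09 for the 8 and -0.04 for all genes. Slc3a2 was then at -0.09, Gclc at -0.09, Gclm at -0.11, Gss at -0.09, Gsr at -0.30 and Ggt1 at -0.73. Each of these comparisons sets 2 libraries against 3.

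Leukocyte and spermatid markers also varied by library. The 10 leukocyte markers summed to 773 FPKM in Sal_CP replicate 1, 221 and 126 in replicates 2 and 3, and 164 to 442 in CP, and Ptprc was at 4.33 FPKM in Sal_CP replicate 1 against 0.653 to 2.19 in the others. Lyz2 made up most of the first sum, at 562 FPKM, and not every marker was highest there. S100a9 was at 1.17, 1.84 and 1.02 FPKM in Sal_CP, against 9.14, 12.04 and 3.07 in CP (adjusted p 0.153 in limma). The 12 spermatid markers had changes above 0 in all 12 tested, with a median of 0.47 and 0 past the test, and their sums overlapped between groups. Of all genes tested, 60.5% had a change below 0, and the median was -0.12. The spermatocyte and meiosis markers, of which 3 of 10 were tested, summed to 7.41 to 11.1 FPKM in Sal_CP, against 4.69 to 6.88 in CP. That sum was higher in every Sal_CP library, but not every marker rose. Of the 3 tested 1, Mlh3, had a change below 0 (-0.17, adjusted p 0.699 in limma), and Dmc1 and Msh4 had lower means in Sal_CP. The Leydig markers, of which 2 of 7 were tested, summed to 1.27 to 3.05 FPKM in Sal_CP, against 3.76 to 5.42 in CP, without overlap. Most of that difference lay in Insl3, listed at 0, 0 and 0.922 FPKM in Sal_CP, against 2.03, 3.18 and 1.85 in CP (adjusted p 0.153 in limma). Insl3 reached the filter of 1 FPKM only through CP, the group where it was higher. Cyp17a1 went the other way, averaging 0.840 ± 0.494 FPKM in Sal_CP, against 0.516 ± 0.305 in CP, with overlap. The Sertoli markers summed to 1.70 to 4.85 FPKM in Sal_CP, against 3.37 to 5.97 in CP, with Fshr listed at 0. Their part in the levels of the 10 genes was not tested.

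**Figure D4:**
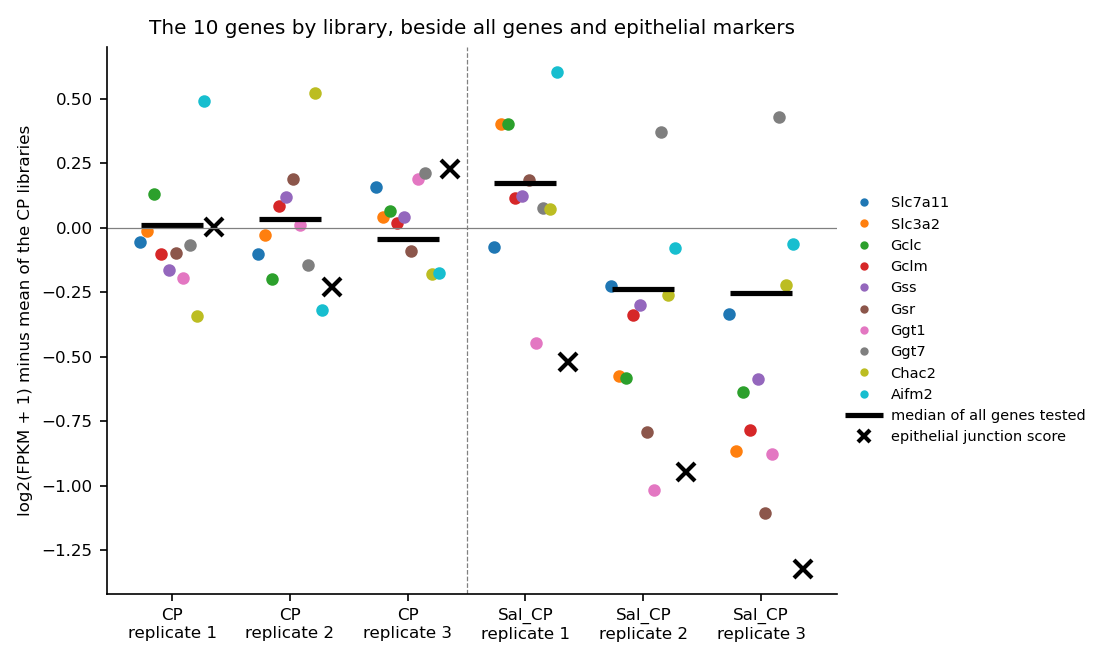
Log2(FPKM + 1) of each gene minus its mean over the CP libraries (vertical axis), for the 6 libraries, with the median of all genes tested (bars) and the mean of the 12 epithelial junction and keratin markers (crosses). In Sal_CP replicates 2 and 3 most of the genes and the median lie below 0 and Ggt7 above it, and the crosses are below 0 in all 3 Sal_CP libraries.

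Genes that feed and drain the same pathway were examined in 5 lists, which held 69 genes, all in the table. limma called 0 of the 47 tested, of which 4 had an unadjusted p below 0.05, where 10.7% of all genes did, and 34 had a change below 0, where 60.5% of all genes did. In the list of glutathione breakdown and the γ-glutamyl cycle, 2 of 7 tested were below 0 and the median was 0.12. Without Sal_CP replicate 1 that median was -0.05, with 3 of 6 below 0, beside -0.30 for all genes. Lap3, an aminopeptidase, averaged 6.40 ± 2.54 FPKM in Sal_CP, against 11.9 ± 0.505 in CP (SD, n = 3 each; log2 change -0.85, adjusted p 0.425 in limma). Dpep3, a membrane dipeptidase of male germ cells, averaged 19.1 ± 1.38 and 11.2 ± 4.403 FPKM (0.79, adjusted p 0.446). Groups did not overlap for either gene. Here and in the lists below, that stands beside 17.3% of all genes tested, in either direction. Chac1, the stress-induced relative of Chac2, did not reach the filter. Its levels were 0.478, 0.221 and 0.0707 FPKM in Sal_CP, against 0.792, 0.451 and 1.62 in CP.

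Transport and precursor genes lay mostly below 0, as did 60.5% of all genes tested. Of the list of cystine, cysteine and glutathione transport 6 of 12 were tested and 4 lay below 0 (median -0.26, or -0.34 without Sal_CP replicate 1). Slc1a1, which takes up glutamate and cysteine, averaged 3.24 ± 0.739 FPKM in Sal_CP, against 1.95 ± 0.528 in CP (log2 change 0.52, adjusted p 0.470 in limma). Its groups did not overlap, with higher levels in Sal_CP. Slc7a8, another light chain that pairs with Slc3a2, averaged 1.45 ± 1.24 and 2.48 ± 0.287 FPKM (-0.61, adjusted p 0.473). Of the transsulfuration and methionine cycle list 11 of 14 were tested and 10 lay below 0 (median -0.36, or -0.63 without Sal_CP replicate 1). Cth, which makes cysteine from cystathionine, averaged 5.12 ± 1.86 FPKM in Sal_CP, against 8.72 ± 0.815 in CP, without overlap (-0.71, adjusted p 0.444). Mpst, a sulfurtransferase of cysteine breakdown, averaged 3.31 ± 1.121 and 5.34 ± 0.499 FPKM, also without overlap (-0.59, adjusted p 0.464).

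The list of NADPH supply and disulfide reductases had 14 of 15 genes tested and 11 below 0, beside 60.5% of all genes tested. Its median was -0.38, or -0.79 without Sal_CP replicate 1. Idh2, the mitochondrial NADP-dependent isocitrate dehydrogenase, averaged 9.27 ± 4.54 FPKM in Sal_CP, against 14.4 ± 1.45 in CP (log2 change -0.67, adjusted p 0.470 in limma). Taldo1, of the pentose phosphate pathway, averaged 18.8 ± 10.4 and 29.4 ± 1.40 FPKM (-0.75, adjusted p 0.470). In the ubiquinone and tetrahydrobiopterin list, which stands beside Aifm2, 9 of 16 were tested and 7 lay below 0 (median -0.16, or -0.41 without Sal_CP replicate 1). Coq2, an enzyme of ubiquinone synthesis, averaged 3.22 ± 1.15 FPKM in Sal_CP, against 5.27 ± 0.515 in CP, without overlap (-0.61, adjusted p 0.464), and Pts, of tetrahydrobiopterin synthesis, averaged 1.59 ± 0.839 and 2.15 ± 0.115 (-0.33, adjusted p 0.559).

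**Figure D5:**
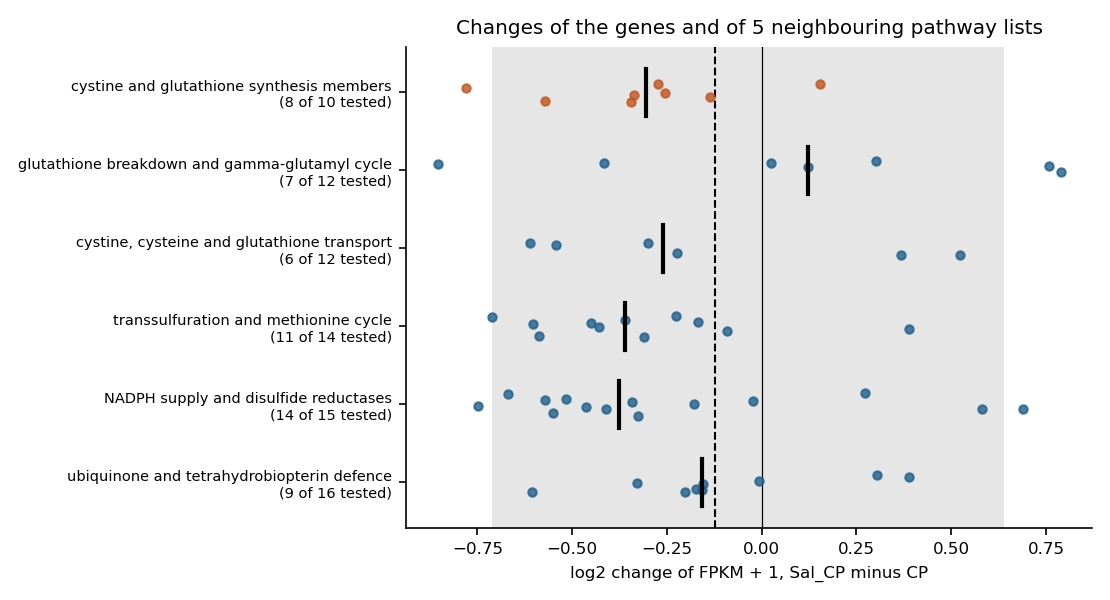
Log2 change of FPKM + 1, Sal_CP minus CP, for each tested gene of the 10 and of the 5 pathway lists (points) with the median of each list (vertical bars). The grey band spans the 5th to 95th percentile of all genes tested (-0.71 to 0.64) around their median of -0.12 (dashed), and the 10 genes have a median of -0.30.

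All 10 are annotated as protein-coding (GENCODE M21, on GRCm38). Slc7a11 (ENSMUSG00000027737) spans 49892526 to 50443614 on chromosome 3, and Gclm (ENSMUSG00000028124) 122245557 to 122270732 on the same chromosome. Slc3a2 (ENSMUSG00000010095) spans 8706882 to 8723369 on chromosome 19, Gclc (ENSMUSG00000032350) 77754535 to 77794485 on chromosome 9, and Gsr (ENSMUSG00000031584) 33652523 to 33698163 on chromosome 8. Gss (ENSMUSG00000027610, 155563181 to 155592810) and Ggt7 (ENSMUSG00000027603, 155490379 to 155518237) lie near each other on chromosome 2, both on the minus strand. Ggt1 (ENSMUSG00000006345, 75561604 to 75586200) and Aifm2 (ENSMUSG00000020085, 61715263 to 61739260) are on chromosome 10, and Chac2 (ENSMUSG00000020309) spans 30976707 to 30986350 on chromosome 11.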

How the data were processed

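Total RNA was made into strand-keeping libraries and sequenced as paired reads of 150 bases, per the labels' protocols. The deposited values are FPKM, computed by the authors on GRCm38, per the submitters' processing notes; which aligner, quantifier or test they used is not given in the sources. The deposited ratio (fold) and log2 columns were found equal to the ratio of group mean FPKM for genes above 0 in both groups, and the deposited p-value and q-value columns are the authors'.

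Genes whose mean across libraries reached 1 FPKM, 12241 in all, entered the test on the log2(FPKM + 1) scale. On this scale changes of low genes are understated. limma 3.58.1 in R 4.3.3, with a variance trend, compared Sal_CP with CP, with Benjamini-Hochberg adjustment over all genes tested and a threshold of 0.05. Ratios within libraries were compared with two-sided exact permutation tests over 20 assignments. ± is the SD. The test was checked on simulated data.

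Depth was estimated from genes with 1 GENCODE M21 transcript over 300 bases, as the most frequent value of one fragment in FPKM times length. Fragment numbers per gene assume an annotated coding length and cover counting error only.

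Promoter sequences are from RefSeq (GRCm38.p6). Figures were drawn with matplotlib 3.10.9. The text names all 10 genes, up to 3 genes of each marker list in list order, and of each pathway list the called genes or else the 2 of smallest p, and any further gene was picked with its values in view. The genes, lists and tests were chosen with earlier results of these data known. Of 2 rows named Dpep2, the one with the lower gene ID was used. Fits were repeated with changed pseudocount, filter, scaling or limma setting, with each library omitted, and with the replicate number as a block.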

Additional observations from a re-analysis of the deposited data

How the results depend on the processing

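For the 10 genes, 0 of 144 log2 changes computed under the alternatives passed the test, with a lowest adjusted p of 0.0661, and limma called 0 of the 10 and 0 of the pathway genes at each of the 18 settings. Signs turned for 1 gene: Aifm2 ranged from -0.0717 to 0.40 when a library was left out, and was -0.0717 with the filter at 0.5 FPKM and without Sal_CP replicate 1, a setting added after seeing the data. The differences between groups in 3 log2 ratios turned sign as well, with leave-one-out ranges of -0.0605 to 0.29 for Gclc over Gclm, -0.0518 to 0.27 for Slc3a2 over Slc7a11 and -0.0364 to 0.39 for Gclc over Gss, while the difference for Ggt1 over Ggt7 stayed between -3.06 and -1.94. Rescaling by the median of ratios moved the median of all genes by 0.16 and removing mitochondrially encoded genes by -0.14. Relative to that median, Slc3a2 ranged from -0.46 to -0.04, Gclc from -0.35 to -0.05, Gclm from -0.32 to -0.07, Gss from -0.28 to -0.05, Gsr from -0.69 to -0.26 and Ggt1 from -1.33 to -0.61 over the alternatives, all below 0, while Chac2 ranged from -0.21 to 0.06. On the same measure Aifm2 stayed above 0, from 0.11 to 0.49. Over the 4 alternatives that held them, Ggt7 ranged from 0.31 to 0.66 and Slc7a11 from -0.20 to -0.02. The count of all genes called, 9, was 0 without a filter, 0 after median of ratios rescaling, 5 after quantile normalization, 14 without mitochondrially encoded genes, 0 at the added setting, and 0 to 13 when a library was left out (0 without Sal_CP replicate 1 and 1 without Sal_CP replicate 2); the cause was not tested. Libraries that share a replicate number did not all deviate together (r = 0.20, -0.12 and -0.06 over genes for numbers 1, 2 and 3). The libraries numbered 1 correlated best with each other, while those numbered 2 and 3 did not correlate best with their own number. With the replicate block limma called 280 genes, 0 of the 10 among them, and Ggt1 over Ggt7 had the same difference of -2.38. Depth limits Ggt1, with 3 to 11 fragments in its lowest library by the transcript length assumed, and also Ggt7 and Gss (8 to 21 each), Chac2 (13 to 17) and, at its shortest transcript, Gclm (12).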

Other observations

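Among the pathway genes, 2 genes that supply reducing power had higher values in every Sal_CP library than in any CP library, beside a related gene that did not. These were chosen after their values were seen, and none passed in limma. Txnrd3, the thioredoxin-glutathione reductase of the testis, was at 26.3, 31.4 and 34.3 FPKM in Sal_CP, against 11.2, 23.2 and 24.2 in CP (log2 change 0.69, adjusted p 0.470 in limma). Txnrd1, the cytosolic thioredoxin reductase of most cells, was at 9.90, 3.84 and 3.45 FPKM in Sal_CP, against 7.04, 9.35 and 8.24 in CP (-0.57, adjusted p 0.505). Me1, the cytosolic malic enzyme that yields NADPH, was at 29.4, 37.7 and 34.3 FPKM in Sal_CP, against 27.6, 22.5 and 17.5 in CP (0.58, adjusted p 0.474). The 12 spermatid markers had a median change of 0.47 in the same comparison, beside -0.12 for all genes tested. The part of the spermatid markers in these levels was not tested. Groups that do not overlap, in either direction, were seen for 17.3% of all genes tested.

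Anpep, an aminopeptidase that acts on products of glutathione breakdown, was at 25.2 FPKM in Sal_CP replicate 1 and at 2.03 to 5.66 in the other 5 libraries. Its log2 change was 0.76 with all libraries (adjusted p 0.565 in limma) and -0.16 without Sal_CP replicate 1. In that library the 10 leukocyte markers summed to 773 FPKM, the highest of the 6 libraries, and their part in the level of Anpep was not tested.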
